A study of Mus musculus with 8 samples.

Results

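The nuclear genes for the oxidative phosphorylation machinery of mitochondria were followed in cardiac PDGFRA+ cells from mice with and without a deletion of Lmna. Members were chosen by symbol only, namely every listed gene whose name begins with Nduf, Sdha to Sdhd, Uqcr, Cox4 to Cox8 or Atp5, together with Cyc1 and Cycs. These rules found 98 of the 18957 listed genes, and 96 of them were among the 13036 genes that passed the filter on low counts. Sorted by role, the 98 members were 36 subunits of complex I, 4 of complex II, 10 genes of complex III and cytochrome c, 18 of complex IV, 16 of complex V, and 14 assembly and associated factors. Ndufa4 and Ndufa4l2 carry complex I names but were placed with complex IV, where NDUFA4 resides.

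Complexes I to IV pass electrons from NADH and succinate to oxygen and pump protons across the inner mitochondrial membrane, and complex V, the ATP synthase, uses the returning protons to make ATP. Most of the subunits are encoded in the nucleus, translated in the cytosol and imported, while a core set is encoded by mitochondrial DNA. Cardiac myocytes are packed with mitochondria and use muscle isoforms of several complex IV subunits, whereas fibroblasts have fewer mitochondria and use the ubiquitous isoforms.

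The series held 8 libraries of total RNA, 4 from WT mice and 4 from Pdgfra-Cre:LmnaF/F mice, each labelled C57BL/6 (mixed) and, by the study's methods, aged 3 to 4 weeks. In the Pdgfra-Cre:LmnaF/F mice, Cre from a Pdgfra transgene deletes floxed Lmna, the gene for lamin A and lamin C, in PDGFRA-expressing cells, which include most cardiac fibroblasts. The transgene is also active in other mesenchyme and in a subset of cardiac myocytes, and the WT libraries came from littermates with neither Cre nor the floxed allele, so an effect of Cre itself cannot be told apart from the deletion. The cells were sorted by flow cytometry from the ventricles as live, lineage-negative and PDGFRA-positive. The labels do not say whether the libraries of a group came from separate mice, so the p-values measure the spread between these libraries, which may in part be technical.

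Library totals ran from 2080555 counts in WT 2 to 12502949 in Pdgfra-Cre:LmnaF/F 4, and the other 6 lay between 6345584 and 10741519. Lmna was lower in every Pdgfra-Cre:LmnaF/F library, with 90.4 to 130 CPM (counts scaled to a common library size) against 274 to 483 in WT (log2 fold change -1.72, SE 0.22, edgeR adjusted p = 0.00492, and -1.64 without Pdgfra-Cre:LmnaF/F 4). A list of 8 fibroblast genes, Pdgfra among them, summed to between 42217 and 58684 CPM in every library, so the labelled cell type was borne out by its markers. Pdgfra-Cre:LmnaF/F 4 stood apart. Its 20 cardiomyocyte markers summed to 7249 CPM against 773, 1369 and 1380 in the other Pdgfra-Cre:LmnaF/F libraries and 1078 to 1620 in WT, and 17 of the 18 markers that passed the filter were highest in that library. The sum of its 10 leukocyte markers was also higher, at 478 CPM against 49.7 to 187 in the other 7 libraries. Lyz2 gave 282 CPM of that sum. The 7 leukocyte markers that passed the filter were each highest in that library, while Cd3e and Cd79a were not. Of the defining myocyte genes, Myh6 read 2046 CPM there and 97.5 to 368 elsewhere, and the marker Nppa was at 0 in 5 libraries. Lists of endothelial genes (163 to 458 CPM), mural genes (216 to 575 CPM), epicardial genes (8.63 to 39.8 CPM), Schwann genes (1.25 to 8.69 CPM) and erythroid genes (16.8 to 667 CPM) were low beside the fibroblast list. The endothelial, mural and fibroblast sums were also highest in Pdgfra-Cre:LmnaF/F 4. By gene, however, that library was the highest in only 2 of 8 endothelial, 2 of 7 mural and 2 of 8 fibroblast genes tested. On the mural list, Des read 188 CPM there and 10.9 to 54.8 CPM elsewhere. On the endothelial list, Fabp4 read 210 CPM there and 47.7 to 136 CPM elsewhere. A list of 20 genes that respond to tissue dissociation, such as Fos and Ier3, was higher in every Pdgfra-Cre:LmnaF/F library (8731 to 13959 CPM) than in any WT library (2949 to 6338 CPM), and 3 of them, Ier3, Btg2 and Nr4a1, passed an edgeR adjusted p of 0.05, against 5 without Pdgfra-Cre:LmnaF/F 4. The tests of the members and gene lists below are therefore given with all libraries and without Pdgfra-Cre:LmnaF/F 4, and the part of the dissociation response in them was not tested.

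Promoters of 80 members were found in RefSeq (GRCm38.p6), as windows of 300 bases from 250 before to 50 after each annotated start. Nuclear respiratory factor 1 (NRF1), ETS-family factors such as GABPA, and YY1 are known regulators of these genes, so their core letters were searched on both strands, beside the TATA box. The NRF1 letters, GCGCA and GCGC with any base N between them, were present at 21 of 80 members (26.3%), against 11.1% of the tested genes with a promoter. The ETS letters CCGGAAG were also present at 21 members (26.3%, against 19.4%), and the YY1 letters AAGATGGC at 11 members (13.8%, against 5.13%). TATAAA was found at 8.75% of members and 8.82% of the tested genes. None of these motifs overlapped another in the windows shown here, and a match is a description of letters, not of binding. The 250 bases before the start are printed for 4 members, 5′ to 3′ on the strand of the gene, with matched letters in capitals. Atp5l is shown because it had the lowest p of all members, Cox6a1 and Cox8b because they stand for a ubiquitous and a muscle isoform, and Ndufaf4 as the assembly factor with the lowest p upwards.
Atp5l, chr9:44920743-44920992, minus strand, an ETS and a TATA match: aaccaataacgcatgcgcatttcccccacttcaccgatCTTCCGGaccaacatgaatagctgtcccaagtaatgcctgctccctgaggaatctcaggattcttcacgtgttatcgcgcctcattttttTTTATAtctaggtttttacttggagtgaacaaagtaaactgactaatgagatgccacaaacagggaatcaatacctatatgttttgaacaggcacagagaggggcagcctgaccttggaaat
Cox6a1, chr5:115348959-115349208, minus strand, 2 NRF1 matches and an ETS match: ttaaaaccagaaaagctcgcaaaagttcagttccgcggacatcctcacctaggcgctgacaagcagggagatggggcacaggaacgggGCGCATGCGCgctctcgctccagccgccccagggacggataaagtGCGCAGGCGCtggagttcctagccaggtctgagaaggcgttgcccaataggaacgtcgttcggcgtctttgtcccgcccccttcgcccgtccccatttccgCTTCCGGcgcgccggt
Cox8b, chr7:140900447-140900696, minus strand, no match in this window: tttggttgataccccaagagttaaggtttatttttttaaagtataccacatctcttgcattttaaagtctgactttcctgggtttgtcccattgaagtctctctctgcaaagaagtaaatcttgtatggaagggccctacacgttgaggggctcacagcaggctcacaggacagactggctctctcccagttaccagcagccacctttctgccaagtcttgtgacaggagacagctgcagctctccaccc
Ndufaf4, chr4:24897833-24898082, plus strand, an NRF1 match: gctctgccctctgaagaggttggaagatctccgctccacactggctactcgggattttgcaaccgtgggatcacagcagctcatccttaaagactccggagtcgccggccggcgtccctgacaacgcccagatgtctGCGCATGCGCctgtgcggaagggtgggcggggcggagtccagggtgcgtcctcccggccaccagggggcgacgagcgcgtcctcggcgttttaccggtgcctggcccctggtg

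In WT cells the members differed widely in level once counts were divided by transcript length. On the scale of CPM per kb of spliced length, the level was highest for Cox6b1, a small complex IV subunit on the intermembrane side, at 608 ± 129 (SD, n = 4). Atp5b, the catalytic beta subunit of the ATP synthase, followed at 381 ± 21.0 and Uqcrh, the hinge subunit of complex III, at 312 ± 62.8. These last 2 levels differed by little more than their spread. Sdhc, a membrane anchor of complex II, stood at 153 ± 15.7 and Ndufa7, an accessory subunit of complex I, at 170 ± 22.4. Ndufa7 and the next complex I subunit, Ndufa6 (167 ± 47.3), did not differ beyond their spread. The assembly and associated factors were low, with 1 exception. Cox7a2l, which joins complexes III and IV into supercomplexes, stood at 133 ± 33.5, and the next of them, Ndufaf3, at 31.3 ± 3.96. Cycs, cytochrome c, was the lowest of its group at 6.37 ± 1.999 per kb. Where the length of all exons of a gene was used in place of spliced length, Cox6b1, Uqcrh and Cox7a2l were still first in their groups, but Ndufa13, Sdhd and Atp5a1 took the place of Ndufa7, Sdhc and Atp5b.

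**Figure D1:**
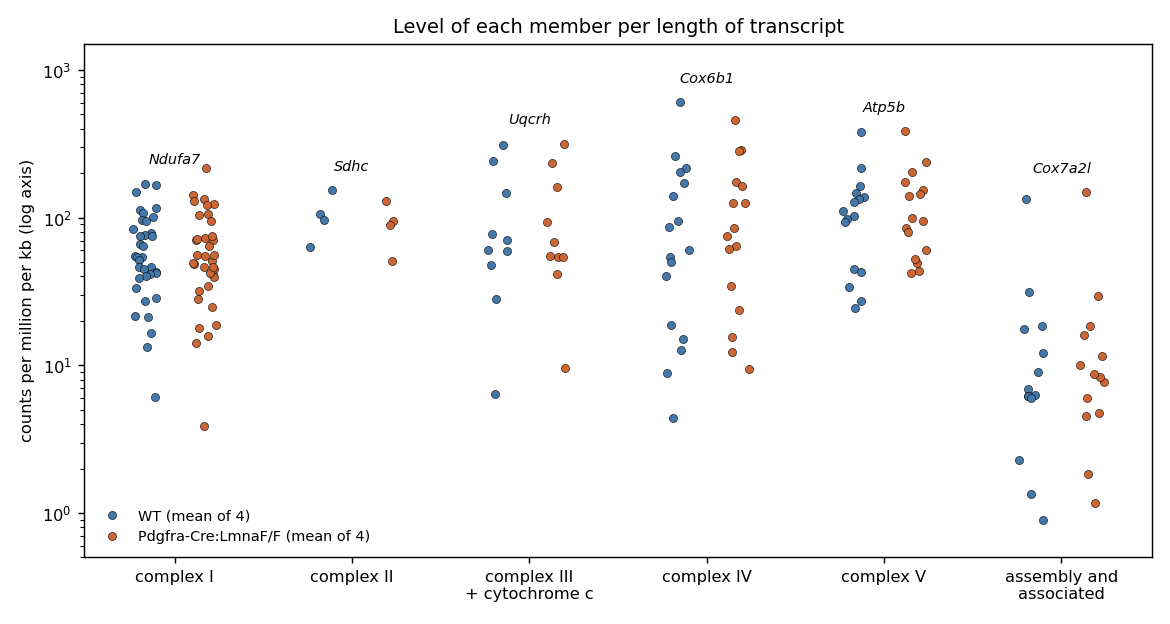
Level of each member in CPM per kb of spliced length (log axis), as the mean of 4 WT libraries (blue) and of 4 Pdgfra-Cre:LmnaF/F libraries (orange), by complex, with the highest WT member of each group named. Cox6b1 is the highest at 608 CPM per kb in WT, and the assembly and associated factors lie below 32 CPM per kb apart from Cox7a2l; Cox8c (0 in WT and 0.339 in Pdgfra-Cre:LmnaF/F) and the Pdgfra-Cre:LmnaF/F value of Cox6b2, at 0, are not drawn.

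The central question was whether the oxidative phosphorylation genes as a class differed between Pdgfra-Cre:LmnaF/F and WT cells. Their summed level was 6585 ± 424 CPM in WT (SD, n = 4) and 6773 ± 903 CPM in Pdgfra-Cre:LmnaF/F (n = 4), a difference of 2.85% that was smaller than either spread. Without Pdgfra-Cre:LmnaF/F 4 the second value was 6375 ± 525 CPM (n = 3), a difference of -3.18% from WT, so the sign turned with that library. By library, WT 1 to 4 summed to 6708, 5959, 6789 and 6885 CPM, and Pdgfra-Cre:LmnaF/F 1 to 4 to 6616, 6737, 5773 and 7965 CPM. The groups overlapped, with WT 2 and Pdgfra-Cre:LmnaF/F 3 at the low end and Pdgfra-Cre:LmnaF/F 4 above all others. In bulk samples, fewer cells of a type and less RNA per cell cannot be told apart.

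No member passed an adjusted p of 0.05 in edgeR, where 53 of 13036 genes did (0.407%). At an unadjusted p under 0.05 there were 4 members of 96, Atp5l, Ndufa11, Atp5j and Ndufb10, a smaller share than the 11.9% over all tested genes. DESeq2 and limma-voom also called 0 members after adjustment, where they called 2.32% and 0.967% of all genes. Each gave 5 members at an unadjusted p under 0.05, beside 12.8% and 14.4% of all genes. Without Pdgfra-Cre:LmnaF/F 4, edgeR called 0 members, beside 0.565% of all genes, and gave 7 at an unadjusted p under 0.05, beside 11.1%. Of the 96 members, 52 were higher and 44 lower in Pdgfra-Cre:LmnaF/F, with a median log2 fold change of 0.02, as over all tested genes (0.02), and a range from -1.23 to 1.08. Without Pdgfra-Cre:LmnaF/F 4, 44 were higher and 52 lower, with a median of -0.04 beside 0.00 over all genes, and 22 members changed sign. For 61 of the 96 members (63.5%) the 95% confidence interval lay within a 2-fold change in either direction, against 41.6% of all tested genes, and for 14 it lay within 1.5-fold. For the other 35 members the interval reached beyond a 2-fold change in at least 1 direction.

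**Figure D2:**
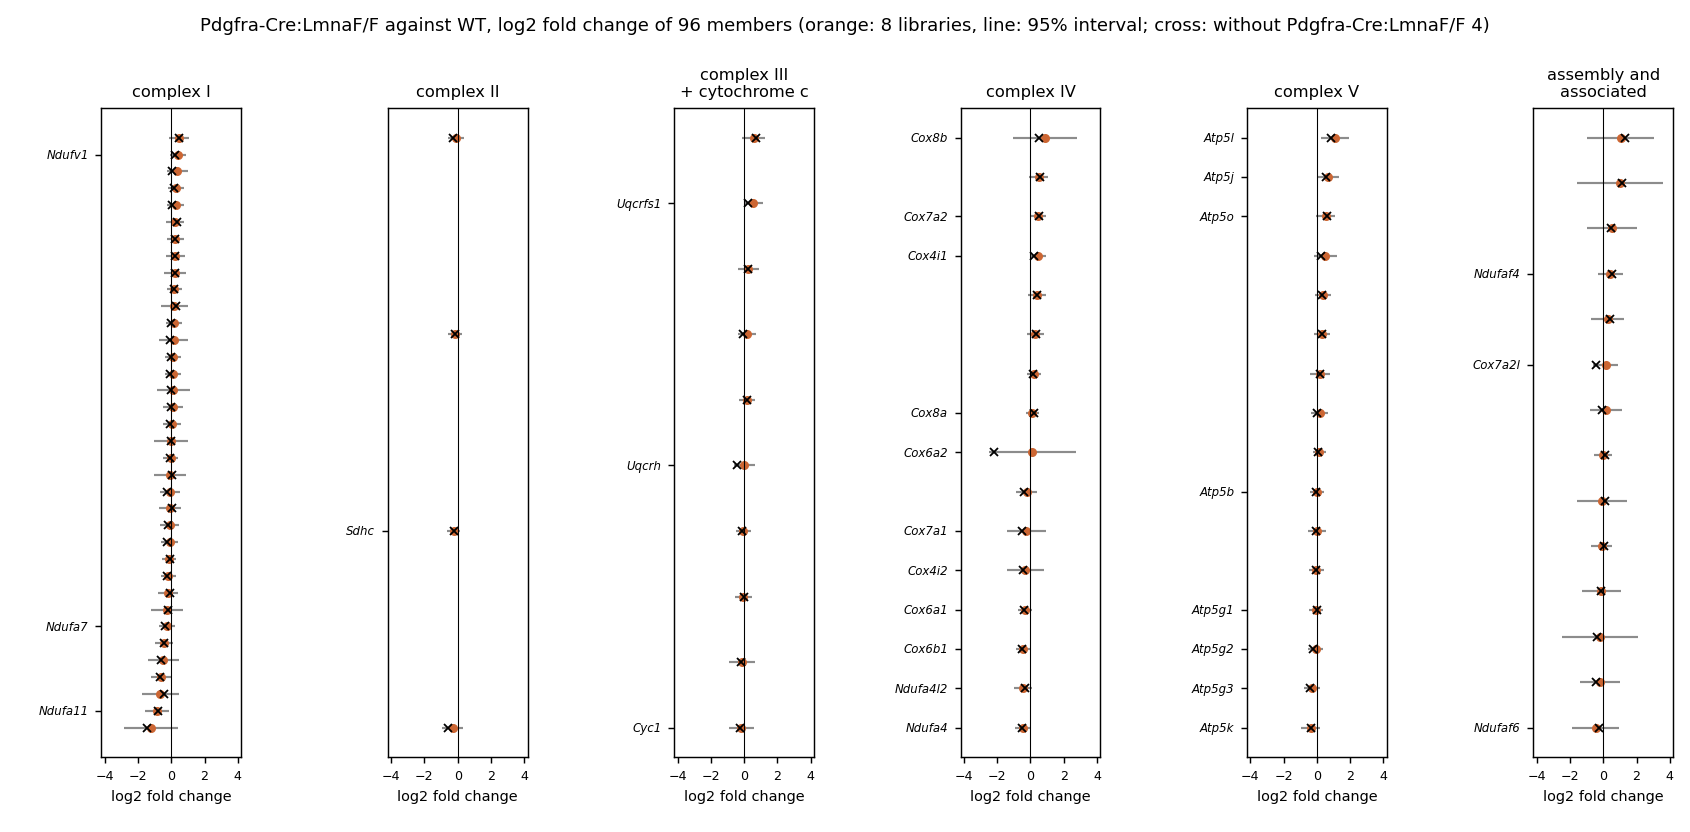
Log2 fold change of each of the 96 tested members (Pdgfra-Cre:LmnaF/F against WT, 4 libraries each, edgeR), sorted within each complex, with names for the genes that the naming rule picked; orange points use all 8 libraries, grey lines are their 95% confidence intervals and crosses leave out Pdgfra-Cre:LmnaF/F 4. The points lie between -1.23 and 1.08, most intervals cross 0, and Cox6a2 has the largest shift, from 0.12 to -2.19.

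Of the 96 members, 4 had Pdgfra-Cre:LmnaF/F libraries all above the WT libraries (Uqcrfs1, Cox7a2, Atp5j and Atp5o) and 0 had them all below. Over all tested genes the groups did not overlap in 8.03%, with 4.06% higher and 3.97% lower. The members thus stood at the background upwards and under it downwards. Without Pdgfra-Cre:LmnaF/F 4, 4 members were higher without overlap and 2 lower, beside 6.35% and 5.96% of all genes (12.3% in either direction).

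**Figure D3:**
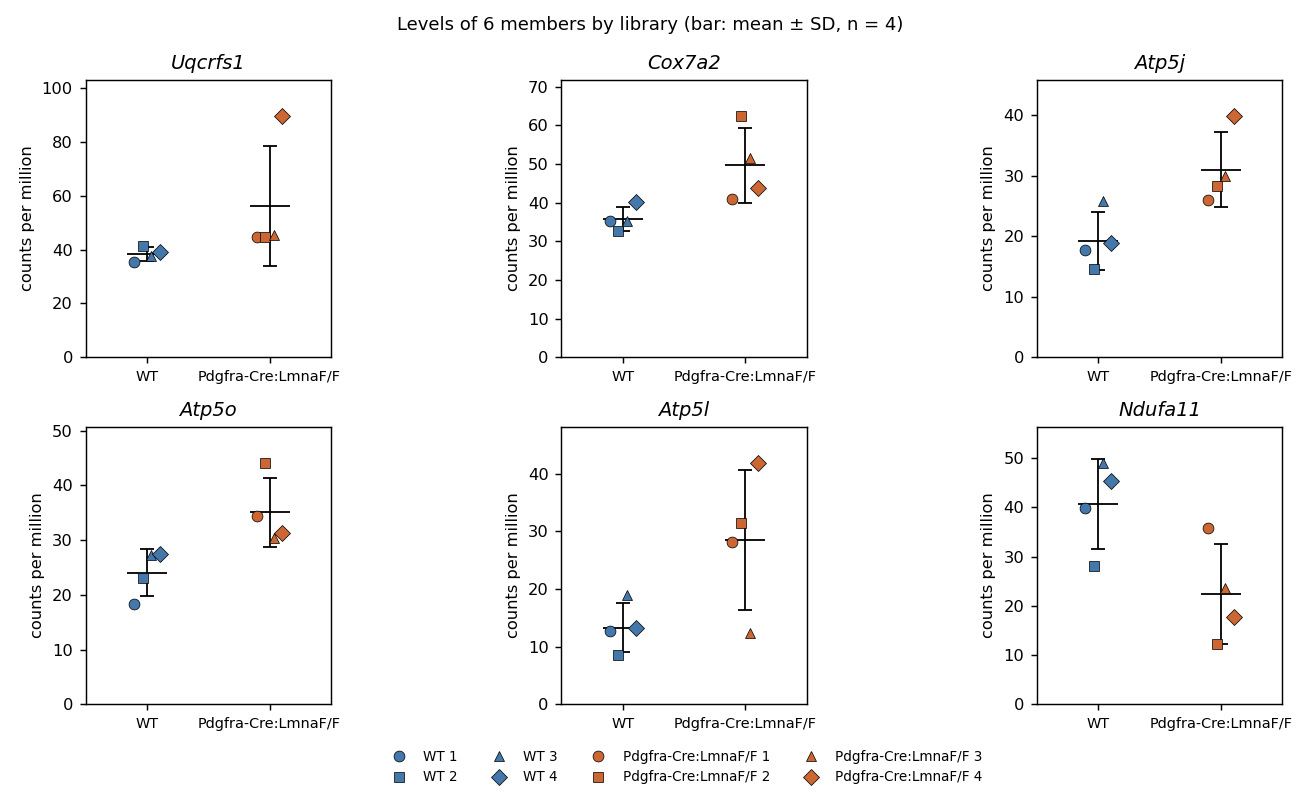
CPM by library for the 4 members whose groups did not overlap (Uqcrfs1, Cox7a2, Atp5j, Atp5o) and for Atp5l and Ndufa11, which had the lowest p upwards and downwards; marker shapes are replicates 1 to 4 and bars are the mean ± SD (n = 4). In Uqcrfs1, Pdgfra-Cre:LmnaF/F 4 reads 89.7 CPM while the other 3 lie between 44.5 and 45.6.

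Complex I, the NADH dehydrogenase, is the entry point for most electrons. The sum of its 36 subunits was 1717 ± 186 CPM in WT and 1735 ± 211 CPM in Pdgfra-Cre:LmnaF/F (1637 ± 97.4 CPM without Pdgfra-Cre:LmnaF/F 4), with 19 subunits higher and 17 lower (median log2 fold change 0.02, against 14 higher, 22 lower and -0.04 without that library). Ndufa11 (chr17:56717767-56722141), an accessory subunit in the membrane arm, had the lowest p among subunits that were lower. It stood at 40.0, 28.2, 49.1 and 45.5 CPM in WT 1 to 4 and at 35.9, 12.3, 23.7 and 17.7 CPM in Pdgfra-Cre:LmnaF/F 1 to 4, so WT 2 fell below the highest Pdgfra-Cre:LmnaF/F library. Its log2 fold change was -0.87 (SE 0.33, edgeR adjusted p = 0.311), and -0.77 without Pdgfra-Cre:LmnaF/F 4. Ndufa11 shares 70 exon bases with Vmac on the opposite strand. Ndufv1 (chr19), the flavoprotein that oxidises NADH, had the lowest p among those that were higher. It read 92.9, 75.0, 70.0 and 72.1 CPM in WT and 76.1, 88.1, 108 and 138 CPM in Pdgfra-Cre:LmnaF/F (log2 fold change 0.41, SE 0.22, edgeR adjusted p = 0.506). The groups overlapped, the highest value was that of Pdgfra-Cre:LmnaF/F 4, and without it the log2 fold change was 0.23 (edgeR adjusted p = 0.781).

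The subunit with the largest fold change downwards, Ndufs6, was singled out after its values were seen. Ndufs6 (chr13:73319838-73328542), an accessory subunit that binds zinc, read 36.3, 20.6, 8.31 and 29.8 CPM in WT and 19.96, 5.74, 0.230 and 14.7 CPM in Pdgfra-Cre:LmnaF/F. The third value was 2 counts, where the other libraries of that group had between 55 and 193, and with this spread the log2 fold change of -1.23 (SE 0.75) had an edgeR adjusted p of 0.575 (-1.46 and 0.560 without Pdgfra-Cre:LmnaF/F 4). Ndufs6 has 1 near-identical pseudogene and shares 30 exon bases with Mrpl36 on the opposite strand. Ndufa7 read 89.6 ± 11.8 CPM in WT and 74.8 ± 17.9 CPM in Pdgfra-Cre:LmnaF/F, a log2 fold change of -0.26 whose 95% confidence interval ran from -0.74 to 0.21 (-0.37, from -0.86 to 0.12, without Pdgfra-Cre:LmnaF/F 4). Of the catalytic core, Ndufs1, Ndufs3, Ndufs7, Ndufs8, Ndufv1 and Ndufv2 had log2 fold changes between -0.19 and 0.41, and none had an adjusted p under 0.506. The range was -0.28 to 0.23, with no adjusted p under 0.741, without Pdgfra-Cre:LmnaF/F 4. Several small subunits were highest in WT 3. Ndufb6, for instance, was 32.6 CPM there and between 7.04 and 22.9 CPM in the other libraries.

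Complex II oxidises succinate and is the only complex of the chain with no mitochondrially encoded subunit. All 4 of its subunits were lower in Pdgfra-Cre:LmnaF/F, with log2 fold changes of -0.11 for Sdha, the flavoprotein, -0.15 for Sdhb, the iron-sulphur subunit, and -0.24 and -0.31 for the anchors Sdhc and Sdhd. None passed the test, with a lowest edgeR adjusted p of 0.680 for Sdhc, and of 0.477 for Sdhd (log2 fold change -0.57) without Pdgfra-Cre:LmnaF/F 4. Sdhc (chr1) read 130, 108, 138 and 124 CPM in WT and 117, 94.6, 115 and 96.6 CPM in Pdgfra-Cre:LmnaF/F, so the groups overlapped, and its log2 fold change was -0.20 without Pdgfra-Cre:LmnaF/F 4. The summed level was 497 ± 29.1 CPM in WT and 439 ± 70.8 CPM in Pdgfra-Cre:LmnaF/F, or 413 ± 58.3 CPM without Pdgfra-Cre:LmnaF/F 4, and all 4 subunits were lower there too. By library the sums were 509, 454, 513 and 514 CPM in WT and 474, 407, 358 and 518 CPM in Pdgfra-Cre:LmnaF/F. Pdgfra-Cre:LmnaF/F 1 to 3 lay below WT 1, 3 and 4, and Pdgfra-Cre:LmnaF/F 4 was the highest of all. With all libraries the 4 confidence intervals lay within a 2-fold change, while that of Sdhd ran from -1.17 to 0.03 without Pdgfra-Cre:LmnaF/F 4.

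Complex III passes electrons from ubiquinol to cytochrome c. With cytochrome c its genes summed to 601 ± 56.3 CPM in WT and 642 ± 139 CPM in Pdgfra-Cre:LmnaF/F, or 575 ± 40.0 CPM without Pdgfra-Cre:LmnaF/F 4. Of these genes, 6 were higher and 4 lower, with a median log2 fold change of 0.09 that became -0.04 without Pdgfra-Cre:LmnaF/F 4. Uqcrfs1 (chr13), the Rieske iron-sulphur protein, read 35.3, 41.3, 37.5 and 39.1 CPM in WT and 44.8, 44.5, 45.6 and 89.7 CPM in Pdgfra-Cre:LmnaF/F. All 4 libraries were above WT, but the log2 fold change of 0.56 (SE 0.27, edgeR adjusted p = 0.436) was 0.23 without Pdgfra-Cre:LmnaF/F 4. Uqcrh (chr4:116066965-116075071) read 179, 120, 126 and 168 CPM in WT and 103, 114, 110 and 273 CPM in Pdgfra-Cre:LmnaF/F. Its log2 fold change was 0.02 with all libraries and -0.44 (edgeR adjusted p = 0.450) without Pdgfra-Cre:LmnaF/F 4, where the other 3 lay below every WT library. Cyc1 (chr15), cytochrome c1, had the lowest p among genes that were lower and yet a log2 fold change of only -0.16 (95% confidence interval -0.91 to 0.60), and -0.24 without Pdgfra-Cre:LmnaF/F 4. Cycs, named after its values were seen, read 23.8, 13.1, 26.4 and 16.3 CPM in WT and 34.96, 40.0, 25.4 and 20.2 CPM in Pdgfra-Cre:LmnaF/F. Its log2 fold change was 0.59 (SE 0.33, edgeR adjusted p = 0.523) and 0.74 without Pdgfra-Cre:LmnaF/F 4 (edgeR adjusted p = 0.428), with overlapping groups, and it has 4 near-identical genes, 3 of them pseudogenes.

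Complex IV, cytochrome c oxidase, reduces oxygen to water, and of its 16 tested subunits 9 were higher and 7 lower. The summed level was 1197 ± 76.0 CPM in WT and 1193 ± 121 CPM in Pdgfra-Cre:LmnaF/F, or 1152 ± 108 CPM without Pdgfra-Cre:LmnaF/F 4. The median log2 fold change was 0.12, and -0.09 without Pdgfra-Cre:LmnaF/F 4. Cox4i1 (chr8), the regulatory subunit, had the lowest p upwards, reading 142, 143, 157 and 164 CPM in WT and 175, 150, 206 and 307 CPM in Pdgfra-Cre:LmnaF/F. The log2 fold change of 0.47 (SE 0.23, edgeR adjusted p = 0.438) was 0.22 without Pdgfra-Cre:LmnaF/F 4. Cox7a2 (chr9), the ubiquitous subunit VIIa, read 35.2, 32.7, 35.2 and 40.2 CPM in WT and 40.9, 62.5, 51.6 and 43.8 CPM in Pdgfra-Cre:LmnaF/F. All 4 were above WT, by a narrow margin at the lowest (log2 fold change 0.47, SE 0.23, edgeR adjusted p = 0.453), and the value was 0.52 without Pdgfra-Cre:LmnaF/F 4. Downwards, Ndufa4 (chr6) read 83.3, 71.4, 78.9 and 83.1 CPM in WT and 75.8, 46.9, 43.2 and 66.6 CPM in Pdgfra-Cre:LmnaF/F (log2 fold change -0.45, SE 0.22, edgeR adjusted p = 0.460, and -0.52 without Pdgfra-Cre:LmnaF/F 4). Pdgfra-Cre:LmnaF/F 1 lay within the WT range and the other 3 below it. Cox6b1 (chr7) stood at 296 ± 62.5 CPM in WT and 221 ± 39.7 CPM in Pdgfra-Cre:LmnaF/F (log2 fold change -0.42, 95% confidence interval -0.88 to 0.04, and -0.48 without Pdgfra-Cre:LmnaF/F 4).

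Complex V had 11 subunits higher and 5 lower, with a median log2 fold change of 0.15 (0.03 without Pdgfra-Cre:LmnaF/F 4) and sums of 2277 ± 116 CPM in WT and 2442 ± 301 CPM in Pdgfra-Cre:LmnaF/F, or 2323 ± 227 CPM without that library. Atp5l (chr9:44912557-44920742), subunit g of the membrane sector, whose promoter is printed above, had the lowest p of all members. It read 12.6, 8.55, 18.9 and 13.2 CPM in WT and 28.1, 31.4, 12.4 and 41.8 CPM in Pdgfra-Cre:LmnaF/F. Pdgfra-Cre:LmnaF/F 1, 2 and 4 were above every WT library, and Pdgfra-Cre:LmnaF/F 3 was below WT 1, 3 and 4. The log2 fold change was 1.08 (SE 0.39, 95% confidence interval 0.25 to 1.92, edgeR adjusted p = 0.277), and 0.83 without Pdgfra-Cre:LmnaF/F 4. Atp5l has 9 near-identical genes in the annotation, 8 of them pseudogenes, so its reads could be split among copies. Its neighbours in the stalk and membrane sector, Atp5j (coupling factor 6) and Atp5o (the oligomycin sensitivity subunit), both on chromosome 16, did not overlap between groups. Atp5j read 17.7, 14.6, 25.9 and 18.8 CPM in WT and 26.0, 28.3, 30.0 and 39.9 CPM in Pdgfra-Cre:LmnaF/F (log2 fold change 0.68, SE 0.29, edgeR adjusted p = 0.373, and 0.53 without Pdgfra-Cre:LmnaF/F 4). The lowest Pdgfra-Cre:LmnaF/F value exceeded the highest WT value by a margin far under the spread. Atp5j shares 397 exon bases with Gabpa on the opposite strand, and the strand setting of the counting is not given, so some of these reads may belong to Gabpa. Atp5o read 18.4, 23.1, 27.3 and 27.4 CPM in WT and 34.4, 44.1, 30.4 and 31.3 CPM in Pdgfra-Cre:LmnaF/F (log2 fold change 0.54, SE 0.27, edgeR adjusted p = 0.451, and 0.59 without Pdgfra-Cre:LmnaF/F 4). It shares 702 exon bases with D430001F17Rik and Gm15976 on the opposite strand and 243 with another annotated gene of its own symbol on the same strand, and it has 3 near-identical genes, 1 of them a pseudogene.

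Within complex V, the abundant catalytic subunits Atp5a1 and Atp5b had the narrowest intervals. Atp5b (chr10) read 757, 754, 671 and 737 CPM in WT and 760, 769, 557 and 856 CPM in Pdgfra-Cre:LmnaF/F, a log2 fold change of 0.01 with a 95% confidence interval from -0.40 to 0.43 (-0.07, from -0.47 to 0.33, without Pdgfra-Cre:LmnaF/F 4). Atp5k (chr5), subunit e, had the lowest p downwards, at 35.5 ± 7.90 CPM in WT and 27.3 ± 2.16 CPM in Pdgfra-Cre:LmnaF/F (log2 fold change -0.38, edgeR adjusted p = 0.628, and -0.37 without Pdgfra-Cre:LmnaF/F 4). The c-ring that rotates in the membrane is encoded by Atp5g1, Atp5g2 and Atp5g3, whose mature products are the same. Their log2 fold changes were -0.07, -0.08 and -0.29, and 0.01, -0.22 and -0.40 without Pdgfra-Cre:LmnaF/F 4.

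**Figure D4:**
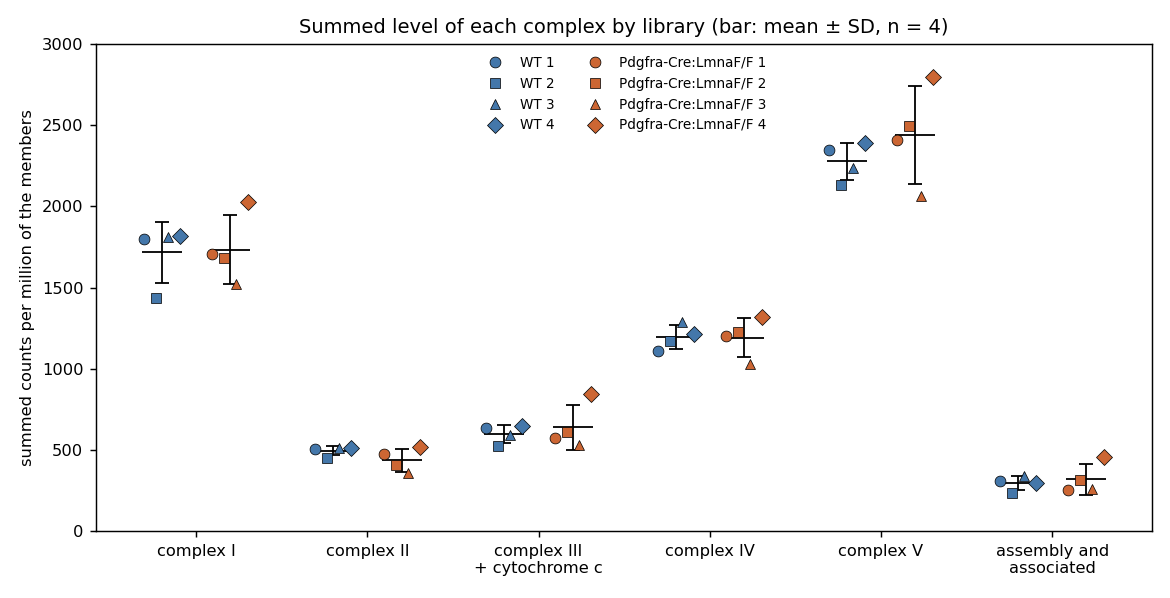
Summed CPM of the members of each complex by library (blue WT, orange Pdgfra-Cre:LmnaF/F, marker shapes replicates 1 to 4, bars mean ± SD, n = 4). The groups overlap in every complex; Pdgfra-Cre:LmnaF/F 4 is the highest library in each, and WT 2 is the lowest in complex I at 1439 CPM.

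The 14 assembly and associated factors were low in counts and 7 were higher and 7 lower (median log2 fold change 0.07, and 0.06 without Pdgfra-Cre:LmnaF/F 4). Only 3 of them had intervals within a 2-fold change. Ndufaf4 (chr4) read 14.9, 13.6, 12.9 and 11.8 CPM in WT and 20.9, 22.6, 13.9 and 14.4 CPM in Pdgfra-Cre:LmnaF/F (log2 fold change 0.43, SE 0.35, edgeR adjusted p = 0.705, and 0.53 without Pdgfra-Cre:LmnaF/F 4). Ndufaf6, another complex I assembly factor, stood at 6.73 ± 2.77 CPM in WT and 4.95 ± 1.68 CPM in Pdgfra-Cre:LmnaF/F (log2 fold change -0.44, edgeR adjusted p = 0.866, and -0.26 without Pdgfra-Cre:LmnaF/F 4). Cox7a2l (chr17) read 153, 96.6, 186 and 150 CPM in WT and 90.4, 142, 98.2 and 323 CPM in Pdgfra-Cre:LmnaF/F. The last value, in the library with the highest sum of cardiomyocyte markers, was the highest of all 8. The log2 fold change of 0.15 turned to -0.42 without that library. Among factors for complex II, Sdhaf1, Sdhaf3 and Sdhaf4 were below 13 CPM in every library, with SEs of 0.94 or more on the log2 scale.

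Several complex IV subunits exist as a ubiquitous and a tissue-restricted isoform, and the pairs were compared as the share of the second gene in the sum of both, per kb. Cox6a2 and Cox8b are the striated muscle partners of Cox6a1 and Cox8a. Cox6a2 took 4.69, 6.11, 0 and 4.19% in WT 1 to 4 and 1.60, 0.215, 1.38 and 14.3% in Pdgfra-Cre:LmnaF/F 1 to 4. Without Pdgfra-Cre:LmnaF/F 4, 3 of 4 WT libraries were above every remaining Pdgfra-Cre:LmnaF/F library, while WT 3, with 0 counts of Cox6a2, was below them. In CPM, Cox6a2 read 7.10, 11.6, 0 and 5.59 in WT and 1.97, 0.209, 1.73 and 21.8 in Pdgfra-Cre:LmnaF/F. The log2 fold change was 0.12 (SE 1.22, edgeR adjusted p = 0.981), and -2.19 (edgeR adjusted p = 0.625) without Pdgfra-Cre:LmnaF/F 4.

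Cox8b took 6.51, 3.68, 0 and 7.06% in WT and 5.34, 4.73, 7.79 and 13.7% in Pdgfra-Cre:LmnaF/F. The log2 fold change of Cox8b was 0.86 (SE 0.90, edgeR adjusted p = 0.793), and 0.51 without Pdgfra-Cre:LmnaF/F 4. Both muscle isoforms were highest in Pdgfra-Cre:LmnaF/F 4, where the cardiomyocyte markers were also highest, and both were at 0 counts in WT 3. The markers were divided at the low end. Tnnt2 (10.2 CPM), Tnni3 (4.79), Tnnc1 (0.160), Actc1 (8.31), Mb (4.79), Mybpc3 (5.91), Atp2a2 (282) and Csrp3 (0) were each lowest in WT 3. The sum of all 20 markers, to which Ttn (470 CPM) and Myh6 (192 CPM) gave much in WT 3, was lowest in Pdgfra-Cre:LmnaF/F 1 (773 CPM, against 1078 CPM in WT 3), and that library held 19 counts of Cox6a2 and 61 of Cox8b. Of the ubiquitous partners, Cox6a1 was within the range of the other libraries in both, at 109 and 117 CPM, while Cox8a read 134 CPM in Pdgfra-Cre:LmnaF/F 4 and 127 CPM, its lowest value, in WT 3. As group means, Cox6a1 read 124 ± 18.1 CPM in WT and 98.8 ± 12.3 CPM in Pdgfra-Cre:LmnaF/F, and Cox8a 145 ± 18.5 and 157 ± 27.4 CPM. Their log2 fold changes were -0.32 and 0.12, and -0.37 and 0.19 without Pdgfra-Cre:LmnaF/F 4. The third muscle isoform, Cox7a1, was likewise highest among the Pdgfra-Cre:LmnaF/F libraries in Pdgfra-Cre:LmnaF/F 4, but it differed from Cox6a2 and Cox8b in WT 3. It took 20.3, 25.7, 31.1 and 24.3% of its pair with Cox7a2 in WT and 19.3, 10.3, 14.4 and 26.0% in Pdgfra-Cre:LmnaF/F, with its highest share in WT 3. In CPM, Cox7a1 stood at 8.17 ± 1.92 in WT and 6.83 ± 2.39 in Pdgfra-Cre:LmnaF/F (log2 fold change -0.26, edgeR adjusted p = 0.911, and -0.52 without Pdgfra-Cre:LmnaF/F 4).

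**Figure D5:**
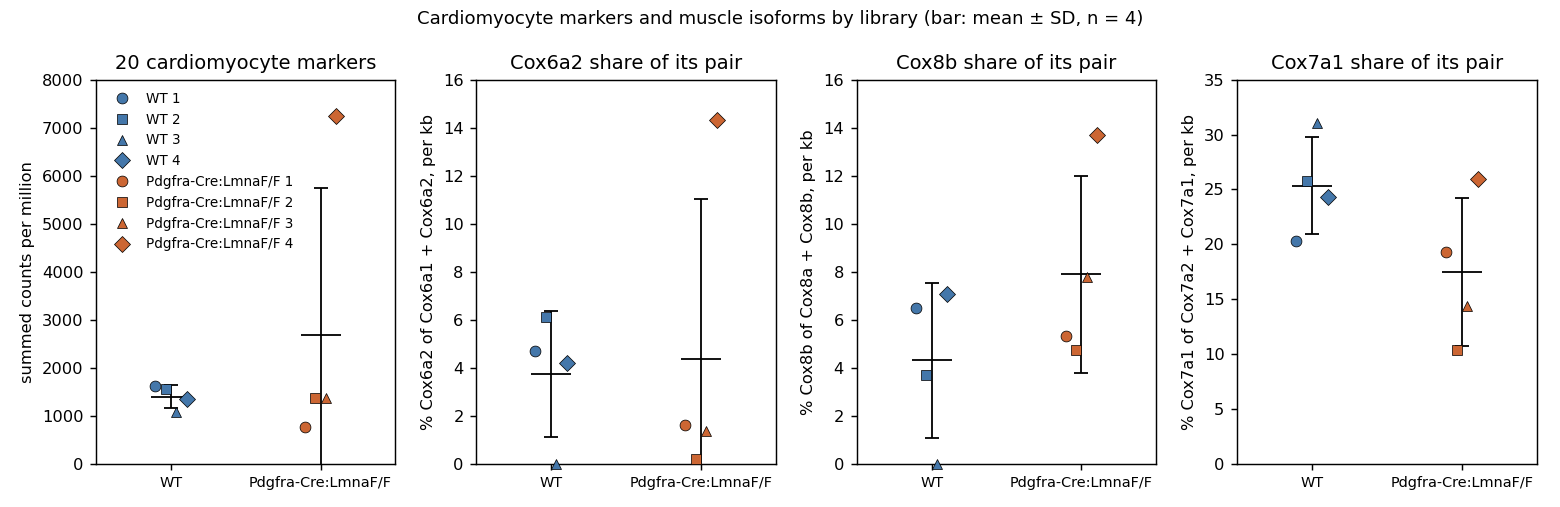
Summed CPM of 20 cardiomyocyte markers, and the share (%) of the muscle isoforms Cox6a2, Cox8b and Cox7a1 in the sum with their ubiquitous partner per kb, by library (marker shapes replicates 1 to 4, bars mean ± SD, n = 4, cut at 0). Pdgfra-Cre:LmnaF/F 4 is the highest library in the first 3 panels and WT 3, at 31.1%, in the panel of Cox7a1.

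The remaining pairs were not muscle isoforms. Cox4i2, the form of subunit IV known from lung and from oxygen sensing, took 4.73, 6.39, 9.85 and 6.28% in WT and 3.55, 8.05, 2.34 and 3.78% in Pdgfra-Cre:LmnaF/F. Its log2 fold change was -0.30 (SE 0.51, edgeR adjusted p = 0.882), and -0.46 without Pdgfra-Cre:LmnaF/F 4. Ndufa4l2, a hypoxia-responsive relative of Ndufa4, took 27.8, 34.1, 41.2 and 29.7% in WT and 29.6, 45.4, 35.3 and 25.7% in Pdgfra-Cre:LmnaF/F. Both genes of that pair were lower in Pdgfra-Cre:LmnaF/F, with -0.44 on the log2 scale for Ndufa4l2 (edgeR adjusted p = 0.525, and -0.34 without Pdgfra-Cre:LmnaF/F 4). Cox6b2, a testis isoform, failed the filter with 10, 0, 41 and 2 counts in WT and 0 counts in every Pdgfra-Cre:LmnaF/F library, where each 0 allows up to 3 counts. Cox8c, the other testis isoform, had 6 counts in Pdgfra-Cre:LmnaF/F 1 and 0 in the other 7 libraries.

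The difference between Pdgfra-Cre:LmnaF/F 4 and the rest extended beyond the muscle isoforms. Set against the mean of the other Pdgfra-Cre:LmnaF/F libraries, that library was higher by a median log2 of 0.22 over the 96 members, against -0.03 over all tested genes. It was the highest of the 8 libraries in 28 members (29.2%), beside 17.3% of all genes. The median was between 0.21 and 0.33 for complexes I to V and -0.40 for the assembly and associated factors. At the other end, WT 2 was the lowest library in 26 members (27.1%, beside 15.7% of all genes), and it had the fewest counts. Pdgfra-Cre:LmnaF/F 3 was the lowest in 22 members (22.9%, beside 15.0%), Pdgfra-Cre:LmnaF/F 2 the highest in 21 (21.9%, beside 14.7%) and WT 3 the highest in 20 (20.8%, beside 16.9%). The part of library depth in these orders was not tested.

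Within a genotype, the members varied less than the typical tested gene. The pooled SD of log2 CPM had a median of 0.35 over the members and 0.49 over all tested genes, and the median of mean CPM was 42.5 and 27.7, so the members also had more counts. The tightest members were Atp5a1 (0.15), Sdhc (0.16) and Ndufb8 (0.17), and the widest were Cox6a2 (2.07), Ndufs6 (1.67) and Cox8b (1.39). In all, 35 members had at least 1 near-identical gene in the annotation, and 32 shared exon bases with a gene on the opposite strand. Examples among members named here are Sdhaf1 with 1733 shared bases, Ndufs1 with 498, Ndufa13 with 375, Ndufb6 with 257, Cox4i1 with 154, Atp5l with 133, Atp5a1 with 129 and Cox6a2 with 70.

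Gene lists around oxidative phosphorylation were compared in the same fit. Of 34 tested assembly factors outside the naming rule, 10 were higher and 24 lower (median log2 fold change -0.17), and none passed the test. The same list had 11 higher and a median of -0.21 without Pdgfra-Cre:LmnaF/F 4. The lowest p was that of Cox19, a copper chaperone factor for complex IV, at 0.83 (edgeR adjusted p = 0.367), and 0.65 without that library. Of 20 regulators of mitochondrial biogenesis, 15 were higher and 5 lower (median 0.35), and none passed. Their median was 0.43 without Pdgfra-Cre:LmnaF/F 4, with 15 again higher. Polrmt, the mitochondrial RNA polymerase, had the lowest p, reading 33.8, 27.7, 26.7 and 23.7 CPM in WT and 16.2, 10.3, 14.9 and 15.6 CPM in Pdgfra-Cre:LmnaF/F (log2 fold change -0.97, SE 0.30, edgeR adjusted p = 0.202, and -1.02 without Pdgfra-Cre:LmnaF/F 4). The groups did not overlap for Polrmt. The promoter-binding regulators had log2 fold changes of 0.50 for Nrf1, 0.31 for Gabpa and 0.08 for Yy1, with edgeR adjusted p of 0.401, 0.584 and 0.937, and 0.56, 0.36 and 0.05 without Pdgfra-Cre:LmnaF/F 4. Ppargc1a, the coactivator PGC-1 alpha, was below 14 CPM in every library and highest in Pdgfra-Cre:LmnaF/F 4.

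The citric acid cycle feeds electrons to complexes I and II, and its 18 genes split into 11 higher and 7 lower, with none called (median log2 fold change 0.04). Both the balance and the sign of the median turned without Pdgfra-Cre:LmnaF/F 4, with 8 higher and a median of -0.06. Sucla2, a subunit of succinyl-CoA ligase, had the lowest p, at 39.5, 39.2, 45.9 and 37.4 CPM in WT and 53.7, 62.8, 80.9 and 63.0 CPM in Pdgfra-Cre:LmnaF/F (log2 fold change 0.68, SE 0.22, edgeR adjusted p = 0.208, and 0.70 without Pdgfra-Cre:LmnaF/F 4). These groups did not overlap. Among 10 carriers and porins, 5 were higher and 5 lower, with a median of 0.12, and 0.01 without Pdgfra-Cre:LmnaF/F 4. Slc25a5, an ADP/ATP carrier, read 61.2, 78.5, 75.6 and 58.8 CPM in WT and 129, 105, 149 and 79.5 CPM in Pdgfra-Cre:LmnaF/F (log2 fold change 0.76, SE 0.23, edgeR adjusted p = 0.187, and 0.90 with edgeR adjusted p = 0.0804 without Pdgfra-Cre:LmnaF/F 4). Ucp2, an uncoupling protein relative abundant in leukocytes, read 25.7, 31.7, 76.2 and 16.2 CPM in WT and 10.2, 3.75, 5.07 and 28.2 CPM in Pdgfra-Cre:LmnaF/F. Ucp2 was singled out after its values were seen, as the only gene of the mitochondrial lists outside the members to pass without Pdgfra-Cre:LmnaF/F 4 (log2 fold change -2.55, edgeR adjusted p = 0.0466, against -1.66 and 0.274 with it). The sum of the leukocyte markers, like Ucp2, was highest among the WT libraries in WT 3 and among the Pdgfra-Cre:LmnaF/F libraries in Pdgfra-Cre:LmnaF/F 4. Lyz2 gave 134 of the 187 CPM in WT 3. Ptprc, Adgre1 and Cd3e were also highest of the WT libraries there, while Csf1r, Cd68 and C1qb were lowest. In Pdgfra-Cre:LmnaF/F 1 to 3 the sums were 53.7, 118 and 113 CPM, lowest in the library where Ucp2 was highest of these. The part of leukocytes in the Ucp2 result was not tested. Of 15 import and folding genes 12 were higher and 3 lower (median 0.14, and 0.17 without Pdgfra-Cre:LmnaF/F 4), led by Tomm70a (0.60, edgeR adjusted p = 0.298, and 0.73 without that library). Of 15 fatty acid oxidation genes 10 were higher and 5 lower (median 0.11, and 0.01 with 9 higher without Pdgfra-Cre:LmnaF/F 4), led by Eci1 (0.93, edgeR adjusted p = 0.327, and 0.80 without that library). The 13 subunits encoded by mitochondrial DNA are not analysed here.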

How the data were processed

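Total RNA was depleted of ribosomal RNA, made into strand-specific libraries and read as paired ends. By the study's methods, HISAT2 was the aligner, mm10 the genome, and featureCounts with GENCODE gave the authors' counts per gene. The annotation release, the strand setting and the treatment of reads that match several genes are not given in the sources used here. The deposited values are whole-number counts per gene, 1 table for each of the 8 libraries, with no normalisation.

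The members and gene lists were chosen with earlier results of these data known. Counts were tested with edgeR 4.0.16 (TMM factors, its default expression filter, quasi-likelihood F test on genotype, Benjamini-Hochberg adjustment over all 13036 genes) in R 4.3.3, after the same code was tested on simulated data. CPM used the TMM library sizes. Levels between genes were divided by the median spliced length of protein-coding transcripts in GENCODE M21 (GRCm38), in which all 98 members were found. Near-identical genes shared at least 95% identity over 150 bases of transcript. Genes named in the text were, in each complex, those with the lowest p in each direction and the highest WT level, then members whose groups did not overlap, and isoform pairs. Alternatives were DESeq2 1.42.0, limma-voom with quality weights (limma 3.58.1), other scalings, filters and covariates, thinning to the smallest library, and leaving out each library. The quality weights give each library its own weight, and limma-voom stands for this setting throughout. Counting error is least certain in WT 2, which had the fewest counts. The study's own estimate of unwanted variation (RUV) was not part of the deposited counts, and its methods do not give the RUV settings. As an alternative, 1 RUV factor was computed here from the residuals of the edgeR fit, and it may differ from the study's. Some members are counted in the totals but not reported by name here.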

Additional observations from a re-analysis of the deposited data

Results flagged for a closer look

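In 78 groups of 4 libraries (summed levels and named genes, each in WT and in Pdgfra-Cre:LmnaF/F), a library was marked where its gap to the nearest other library, as a share of the whole range of its group, passed Dixon's 95% critical value. Chance marks about 1 group in 20, so about 4 of 78 would be marked without cause, and 7 were. Pdgfra-Cre:LmnaF/F 4 accounted for 4 of the 7. Its summed cardiomyocyte markers were 7249 CPM beside 773 to 1380 in the other 3 libraries, Uqcrh was 273 CPM beside 103 to 114, Uqcrfs1 was 89.7 CPM beside 44.5 to 45.6, and Cox6a2 was 21.8 CPM beside 0.209 to 1.97. WT 2, the library with the fewest counts, accounted for 2, as its sum was 1439 CPM for complex I beside 1798 to 1818 and 454 CPM for complex II beside 509 to 514. In WT 3, the testis isoform Cox6b2 was at 6.55 CPM beside 0 to 0.934 in the other WT libraries.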

How the results depend on the processing

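No alternative called any member, and the lowest adjusted p of a member lay between 0.104 (DESeq2 with 1 RUV factor) and 0.508 (edgeR without WT 4). The number of genes called over the whole table was 53 in edgeR and moved to 303 with DESeq2, 126 with limma-voom, 274 with no filter, 83 with an RUV factor and 455 with DESeq2 and an RUV factor. Leaving out single libraries gave 13 to 76, with 24 without WT 1, 24 without WT 2, 13 without WT 4, 26 without Pdgfra-Cre:LmnaF/F 2 and 17 without Pdgfra-Cre:LmnaF/F 3.

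The complex IV median of 0.12 moved to -0.052 with limma-voom, -0.033 with at least 10 counts in every library and -0.052 with the replicate block, and to between -0.089 (without Pdgfra-Cre:LmnaF/F 4) and 0.26 (without Pdgfra-Cre:LmnaF/F 3) when libraries were left out. The median of the assembly and associated factors, 0.07, moved to -0.073 with limma-voom and ranged from 0.017 to 0.18 without single libraries. The count of members higher without overlap, 4, was 2 after thinning and 4 to 8 without single libraries (8 without WT 1 or Pdgfra-Cre:LmnaF/F 3, 7 without Pdgfra-Cre:LmnaF/F 2). Over all tested genes the share higher was 4.06% with all libraries and 6.35% without Pdgfra-Cre:LmnaF/F 4. The count lower, 0, was 1 after thinning and 0 to 4 without single libraries (4 without WT 2 or Pdgfra-Cre:LmnaF/F 2). The share lower over all tested genes was 3.97% with all libraries and 5.96% without Pdgfra-Cre:LmnaF/F 4. For the other settings the share over all genes is not given here, so those counts cannot be set against it.

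Under some alternatives 8 named genes changed sign. With limma-voom and its quality weights the log2 fold changes became -0.24 for Uqcrh, -0.028 for Atp5b, -0.085 for Cox7a2l and -1.16 for Cox6a2. With no filter they were -0.0064 for Uqcrh and -0.0065 for Atp5b, and with an RUV factor -0.00094 for Uqcrh. After thinning they were -0.0044 for Atp5b and 0.028 for Cox4i2. Without single libraries they ranged from -0.44 to 0.16 for Uqcrh, -0.070 to 0.13 for Atp5b, -0.42 to 0.35 for Cox7a2l, -2.19 to 0.59 for Cox6a2, -0.43 to 0.033 for Cyc1, -0.17 to 0.039 for Atp5g1 and -0.22 to 0.0097 for Atp5g2. The cause of these shifts was not tested.

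The labels do not say whether the replicate numbers shared by the groups pair the libraries. Same-numbered libraries correlated by -0.027, -0.030, -0.0041 and 0.040 in their deviations from the group mean, and different-numbered libraries by -0.034 to 0.038. Because the deviations were centred within each group, these values cannot decide whether the libraries were paired. With the replicate block, 0 members and 36 genes were called, and the log2 fold changes were -0.087 for Uqcrh, -0.0036 for Atp5b, -0.010 for Cox7a2l and -0.22 for Cox6a2. The length of all exons, chosen after the data were seen, gave WT levels per kb of 49.0 for Ndufa7, 38.4 for Sdhc and 172 for Atp5b in place of 170, 153 and 381.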

Other observations

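The share of all counts that fell on the 98 members was 0.668, 0.569, 0.670 and 0.673% in WT 1 to 4 and 0.678, 0.695, 0.605 and 0.764% in Pdgfra-Cre:LmnaF/F 1 to 4. The chaperones that fold imported subunits read 61.3, 51.8, 67.7 and 46.5 CPM in WT and 78.7, 64.5, 59.5 and 50.0 CPM in Pdgfra-Cre:LmnaF/F for Hspd1, and 127, 132, 129 and 97.6 CPM against 153, 182, 138 and 164 CPM for Hspa9, which is mitochondrial HSP70. All Pdgfra-Cre:LmnaF/F libraries were above all WT libraries for Hspa9, by 0.39 on the log2 scale (edgeR adjusted p = 0.434, against 0.38 and 0.522 without Pdgfra-Cre:LmnaF/F 4), and both genes were chosen after their values were seen. The summed level of the 15 import and folding genes was 952 ± 94.5 CPM in WT and 1096 ± 24.2 CPM in Pdgfra-Cre:LmnaF/F (1097 ± 29.6 CPM without Pdgfra-Cre:LmnaF/F 4), with no gene called. Tfam, which packages and transcribes mitochondrial DNA, read 29.7, 13.1, 25.1 and 21.7 CPM in WT and 27.1, 60.7, 25.9 and 32.6 CPM in Pdgfra-Cre:LmnaF/F (log2 fold change 0.69, edgeR adjusted p = 0.455, against 0.74 and 0.486 without Pdgfra-Cre:LmnaF/F 4), with overlapping groups.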
